A study of Mus musculus with 502 samples.

Results

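The silencers described here lie in 16 windows of the human genome (build hg38), 15 of which hold a gene that marks or directs lymphoid or myeloid blood cells, with RAG1 and RAG2 sharing 1 window. The remaining window, on chromosome 16, has no gene in the member list and is called the chromosome 16 window. A silencer was taken as a member when its midpoint fell in a window. This choice used positions only, not activity, and gave 1308 of the 397136 silencers in 3 cell lines: 326 of 293T, 475 of K562 and 507 of LNCap. The windows are 0.500 to 0.750 Mb long, 8.95 Mb in all, or 0.290% of the genome.

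Silencers had been mapped by Ss-STARR-seq, a reporter assay in which sheared genomic fragments of random origin are cloned into a plasmid, transfected, and compared between the RNA they give (output) and the plasmid DNA (input). The labels list 102 output libraries and 1 input library of 293T, a line from embryonic kidney. For K562, a leukaemia line with erythroid features, they list 180 output libraries and no input library. For LNCap, a prostate cancer line, they list 179 output and 40 input libraries. The labels give no treatment or genotype groups, each line is a single established line, and none is a lymphocyte or a mature myeloid cell. The libraries carry a mouse label although the lines and the genome build are human, and the lists were treated as human. Each line has 1 deposited list, in which libraries had been combined, so nothing here measures the spread between cultures. No test between lines was possible, and no p-value is given. Intervals are 95% intervals of counting error only, treat silencers as independent, and read depth is unknown. Gene expression is not in the lists, so the line labels were not checked against marker genes.

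A silencer is a stretch of DNA that lowers transcription from a promoter, usually by binding repressors. Blood cell genes include a classical case: an intronic silencer of Cd4, bound by Runx proteins, keeps that gene off in CD8 T cells. Lineage regulators such as SPI1, CEBPA and PAX5 also act by turning genes of other blood lineages off. A plasmid assay reads what a fragment can do outside its own chromosome, and it does not show which gene a silencer acts on. No human gene annotation or genome was used here, so positions are given within windows and not relative to exons, introns or promoters.

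The windows together held more silencers than their length would give in K562 and LNCap, and not in 293T. Genome length here, 3086 Mb, runs to the last silencer of each chromosome and takes in stretches without any. The genome densities are thus lower, and the ratios to them higher, than over the 5753 bins of 500 kb with any silencer. Ratios to those bins alone were not computed. K562 had 53.1 silencers per Mb in the windows (95% interval 48.4 to 58.1) against 43.5 over the genome, or 1.22 times the genome density (1.11 to 1.34). With scores above the list median alone, the K562 value was 1.13 times, with an interval that took in 1 (0.979 to 1.29). LNCap had 56.6 per Mb (51.8 to 61.8) against 44.6, or 1.27 times (1.16 to 1.38). 293T had 36.4 per Mb (32.6 to 40.6) against 40.6, or 0.897 times (0.803 to 1.00). As a share of its own list, 293T stood at 0.721 times the mean of the other 2 lists (0.634 to 0.818), K562 at 1.13 times (1.00 to 1.26) and LNCap at 1.20 times (1.07 to 1.34). Set against the chromosomes that hold a window in place of the whole genome, the 293T ratio was 0.754. The labels hold no input library of K562, 1 of 293T and 40 of LNCap, and the part of this difference in these ratios was not tested.

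The windows differed widely among themselves. Their densities ran from 15.0 to 58.2 per Mb in 293T, from 16.7 to 96.0 in K562 and from 16.7 to 108 in LNCap. The median of the 5753 genome bins of 500 kb with any silencer was 42.0 per Mb in each list. The median window held 38.2, 57.9 and 57.1 per Mb in 293T, K562 and LNCap. The interval of the density lay above the genome density in 0 windows of 293T, 6 of K562 and 8 of LNCap, and below it in 3, 2 and 2. The share of bins past the same rule was not computed, so these counts have no background. The bins themselves varied, with quartiles of 32.0 and 54.0 per Mb in 293T, 30.0 and 58.0 in K562, and 32.0 and 58.0 in LNCap. The order of the windows was alike in K562 and LNCap, with Spearman's rho of 0.76 over the 16 windows (0.75 over 5753 bins of the genome); 293T reached 0.60 with K562 and 0.64 with LNCap (bins: 0.57 and 0.52). These correlations are descriptions, since windows of 3 lists made with 1 assay share base composition and mappability.

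**Figure D1:**
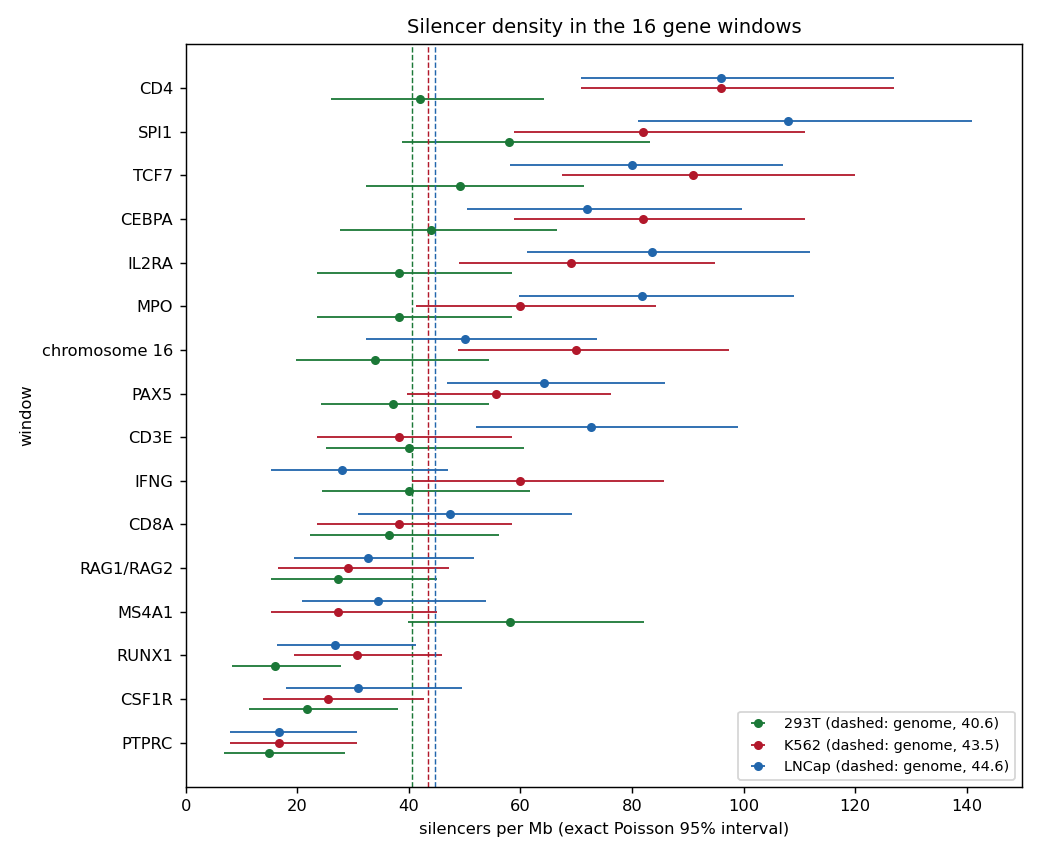
Silencers per Mb (horizontal axis) in each of the 16 windows (vertical axis, ordered by the mean of K562 and LNCap), as points for 293T, K562 and LNCap with exact Poisson 95% intervals. Dashed lines give each list's genome density, and the CD4 window stands highest in K562 and the SPI1 window in LNCap, while PTPRC stands lowest in all 3 lists.

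The myeloid windows held SPI1, CEBPA, RUNX1, CSF1R and MPO, and were uneven. Their joint density per Mb was 33.7 (27.3 to 41.1) for 293T, 53.3 (45.2 to 62.5) for K562 and 60.4 (51.7 to 70.1) for LNCap. Relative to the genome these are 0.830, 1.23 and 1.35 times. SPI1, CEBPA and MPO lay above the genome density in K562 and LNCap, and RUNX1 and CSF1R lay below it in all 3 lists. The intervals took in the genome density for MPO and RUNX1 in K562 and for CSF1R in LNCap.

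SPI1 encodes PU.1, a transcription factor that myeloid cells and B cells need. Its window (chromosome 11, 47.1 to 47.6 Mb) held 29 silencers of 293T, 41 of K562 and 54 of LNCap. The LNCap density of 108 per Mb was the highest of any window in any list and exceeded that of 96.6% of bins, and its share was 1.46 times the mean of the other lists (1.00 to 2.11; 0.894 to 2.06 with silencers within 500 bp merged). The highest K562 score of all 16 windows was here, 5.8 at chr11:47371309-47371359, a silencer of 50 bp met in no other list. The activity score is the authors' own, with no stated scale and no value below 2, so it only ranks silencers within a list. Only 0.115% of the K562 list scored as high. K562 and LNCap shared 8 positions in the window. Among them, chr11:47192787-47192868 had scores of 3.1 in K562 and 4 in LNCap. Another, chr11:47445751-47445951, had 2.1 in K562 and 4.6 in LNCap, the highest LNCap score of the window.

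CEBPA encodes the transcription factor that starts granulocyte development. Its window (chromosome 19, 33.05 to 33.55 Mb) held 22, 41 and 36 silencers of 293T, K562 and LNCap, and 66 of the 99 lay left of the window's centre (the lower coordinates). The densest 50 kb, chr19:33100000-33150000, held 27 of them (7, 9 and 11). Inside it, 4 silencers of 293T formed an array, meaning at least 3 silencers of 1 list, each within 500 bp of the next, at chr19:33123251-33123951. A position held by all 3 lists, chr19:33123315-33123601, lies in that array, scored 2 by 293T, 2.3 by K562 and 2 by LNCap. The K562 and LNCap silencers there overlap the 293T one but not each other. The highest 293T score in the window, 4.1 at chr19:33121001-33121051, overlapped a LNCap silencer.

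MPO encodes myeloperoxidase, the granule enzyme of neutrophils. In its window (chromosome 17, 58 to 58.55 Mb) the lists held 21, 33 and 45 silencers, and LNCap stood at 1.58 times the other lists (1.04 to 2.39) while 293T stood at 0.586 times (0.343 to 0.958). The highest score of all members was LNCap's 7.9 at chr17:58419250-58419301, a level that 0.0290% of the LNCap list reached. K562 had a silencer of 250 bp with a score of 3.7 over the same bases. This window also held a stretch where the lists parted: in the 50 kb of chr17:58450000-58500000, 293T and K562 had 8 silencers each and LNCap had 0. By a one-sided limit a count of 0 allows up to 3 silencers, or 60.0 per Mb, which is a tighter limit than the intervals used elsewhere, against 81.8 per Mb for LNCap over the whole window. Of 3016 bins of 50 kb in the genome with at least 16 silencers over the lists, LNCap had none in 3, K562 in 1 and 293T in 30. The neighbouring 50 kb on the left held 2, 4 and 9 silencers. In the stretch without LNCap, 293T and K562 overlapped at 3 positions: chr17:58450371-58450621 with scores of 3.1 and 3.8, chr17:58460678-58460828 with 2.3 and 2.6, and chr17:58484776-58484829 with 2.1 in both. This stretch was picked out after its counts were seen.

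RUNX1, a regulator of blood stem cells, and CSF1R, the receptor through which macrophages receive their growth factor, lay in sparse windows. The RUNX1 window (chromosome 21, 34.55 to 35.3 Mb), the longest of the 16, held 12, 23 and 20 silencers of 293T, K562 and LNCap. That is 16 (8.27 to 27.9), 30.7 (19.4 to 46.0) and 26.7 (16.3 to 41.2) per Mb. No list had a silencer over 98.0 kb, chr21:34784651-34882671. No RUNX1 score exceeded 3.2 in any list. The CSF1R window (chromosome 5, 149.8 to 150.35 Mb) held 12, 14 and 17. It still had the second highest K562 score of the windows, 5 at chr5:149929601-149929701.

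The T lymphoid windows held CD4, CD8A, CD3E, TCF7, IL2RA and IFNG, and were the densest of the groups with member genes in K562 and LNCap. Their joint density per Mb was 40.9 (34.2 to 48.6) for 293T, 65.0 (56.5 to 74.5) for K562 and 68.1 (59.4 to 77.8) for LNCap, or 1.01, 1.5 and 1.53 times the genome density. 293T stood at 0.668 times the mean of the other lists over these windows (0.545 to 0.814). CD4, TCF7 and IL2RA carried the high densities in both K562 and LNCap, and CD3E and IFNG differed between these lists.

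CD4, the co-receptor of helper T cells, lies in a window (chromosome 12, 6.55 to 7.05 Mb) with 21 silencers of 293T and 48 each of K562 and LNCap. The 293T share was 0.475 times the mean of the other lists (0.281 to 0.767). With silencers within 500 bp merged that ratio was 0.515, and with 100 kb trimmed from each end of the window it was 0.609, both above 0.5. K562 and LNCap shared 10 of the 95 positions in the window, and 2 more held overlapping silencers from all 3 lists. At chr12:6615381-6615631 293T scored 2.9, K562 2.6 and LNCap 6.3, the LNCap value being the second highest of its members. At chr12:6989551-6990205 they were 2.7, 2 and 2.6, and the LNCap silencer there, 650 bp wide, was the widest of the LNCap members. The 293T and K562 silencers at that position overlap the LNCap one but not each other. The widest member of any list, 700 bp in K562 at chr12:6572073-6572773, lay in the same window.

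TCF7 encodes TCF-1, a transcription factor of developing and memory T cells, and IL2RA the alpha chain of the interleukin receptor that activated and regulatory T cells carry. The TCF7 window (chromosome 5, 133.85 to 134.4 Mb) held 27, 50 and 44 silencers, and the IL2RA window (chromosome 10, 5.75 to 6.3 Mb) held 21, 38 and 46. The 293T share was 0.623 times the other lists at TCF7 (0.390 to 0.964) and 0.543 times at IL2RA (0.320 to 0.885). Both intervals took in 1 with scores above the list median, at 0.772 (0.410 to 1.38) and 0.568 (0.241 to 1.19). So did TCF7 with merged silencers (0.372 to 1.02) and IL2RA with trimmed windows (0.294 to 1.05). LNCap's largest array, 5 silencers over 1200 bp, was at chr5:134257551-134258751 in the TCF7 window, and 3 of LNCap's 12 arrays lay in the IL2RA window. K562 and LNCap shared 6 positions in the IL2RA window.

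CD3E encodes a signalling chain of the T cell receptor complex, and IFNG encodes interferon gamma, the main cytokine of T helper and natural killer cells against intracellular microbes. At CD3E (chromosome 11, 118.05 to 118.6 Mb) the lists held 22, 21 and 40 silencers, with LNCap at 1.75 times the others (1.11 to 2.75). At IFNG (chromosome 12, 67.9 to 68.4 Mb) they held 20, 30 and 14, with K562 at 1.71 times (1.01 to 2.88) and LNCap at 0.530 times (0.271 to 0.975). IFNG was thus 1 of 4 windows with a LNCap ratio under 1. With silencers within 500 bp merged, both IFNG intervals took in 1 (K562 1.43, LNCap 0.668).

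CD8A, the co-receptor of cytotoxic T cells, had the most even counts of the T lymphoid windows: 20, 21 and 26 in 293T, K562 and LNCap (chromosome 2, 86.5 to 87.05 Mb). It held the highest 293T score of all windows, 6.7 at chr2:86818186-86818236, a 50 bp silencer met in no other list. Only 0.0575% of the 293T list scored as high. At chr2:86853651-86853701 K562 and LNCap listed exactly the same interval, with scores of 4 and 3.1.

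The B lymphoid windows held PAX5, RAG1 with RAG2, and MS4A1, and lay near the genome density in all 3 lists: 40.6 per Mb (31.8 to 51.0) for 293T, 38.9 (30.3 to 49.1) for K562 and 45.6 (36.2 to 56.5) for LNCap. The group mean hides opposite windows. PAX5, the factor that commits cells to the B lineage, had 26, 39 and 45 silencers (chromosome 9, 36.6 to 37.3 Mb). RAG1 and RAG2, which encode the recombinase that assembles antigen receptor genes, had 15, 16 and 18 (chromosome 11, 36.3 to 36.85 Mb), all below the genome density, with intervals that took it in. The RAG1 and RAG2 window still held a K562 score of 4.7, at chr11:36518100-36518233.

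MS4A1, which encodes CD20 on mature B cells, was the exception among the 16 windows. The window (chromosome 11, 60.2 to 60.75 Mb) held 32 silencers of 293T, 15 of K562 and 19 of LNCap. 293T stood at 2.05 times the mean of the other lists (1.22 to 3.42), and it was the only window with a 293T ratio over 1. The 293T silencers were spread out: each of the 11 bins of 50 kb held 2 to 4 of them, and K562 had none in 3 bins. None of the 32 overlapped a silencer of the other lists, where the whole 293T list overlapped K562 in 3.30% and LNCap in 3.58%, so that few overlaps could be met in a count this small. The highest 293T score there was 4.9, at chr11:60538050-60538351, and LNCap reached 5.3 at chr11:60641796-60641846. With silencers within 500 bp merged the 293T ratio was 1.89 (1.09 to 3.27), under 2.

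PTPRC encodes CD45, the surface phosphatase of nearly all leukocytes, and its window was the sparsest. The window (chromosome 1, 198.4 to 199 Mb) held 9, 10 and 10 silencers of 293T, K562 and LNCap, or 0.370 (0.169 to 0.702), 0.383 (0.184 to 0.705) and 0.373 (0.179 to 0.687) times the genome density. All 29 lay right of the window's centre. No silencer of any list fell between 198400000 and 198730663, the left 331 kb of the window, and the empty stretch began outside it, at 198368981. Of 362940 gaps between silencers of the pooled lists, 96 were at least as long as that whole gap of 362 kb, and the median gap was 4.17 kb. Whether fragments of this stretch were present in the plasmid library was not analysed here. The single position shared between lists, chr1:198753650-198753851, was held by 293T (score 2) and LNCap (score 2.1), and K562 overlapped neither.

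The chromosome 16 window (28.7 to 29.2 Mb) held 17, 35 and 25 silencers. K562 stood at 1.64 times the mean of the other lists (1.02 to 2.64), but the interval took in 1 with merged silencers (0.928 to 2.63) and with scores above the list median (0.813 to 2.99). In the central 100 kb of the window lay 13 of its 35 silencers. The left 111 kb held none, part of a gap of 169 kb. Its 75 positions included 1 shared by K562 and LNCap and 1 shared by 293T and K562.

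**Figure D2:**
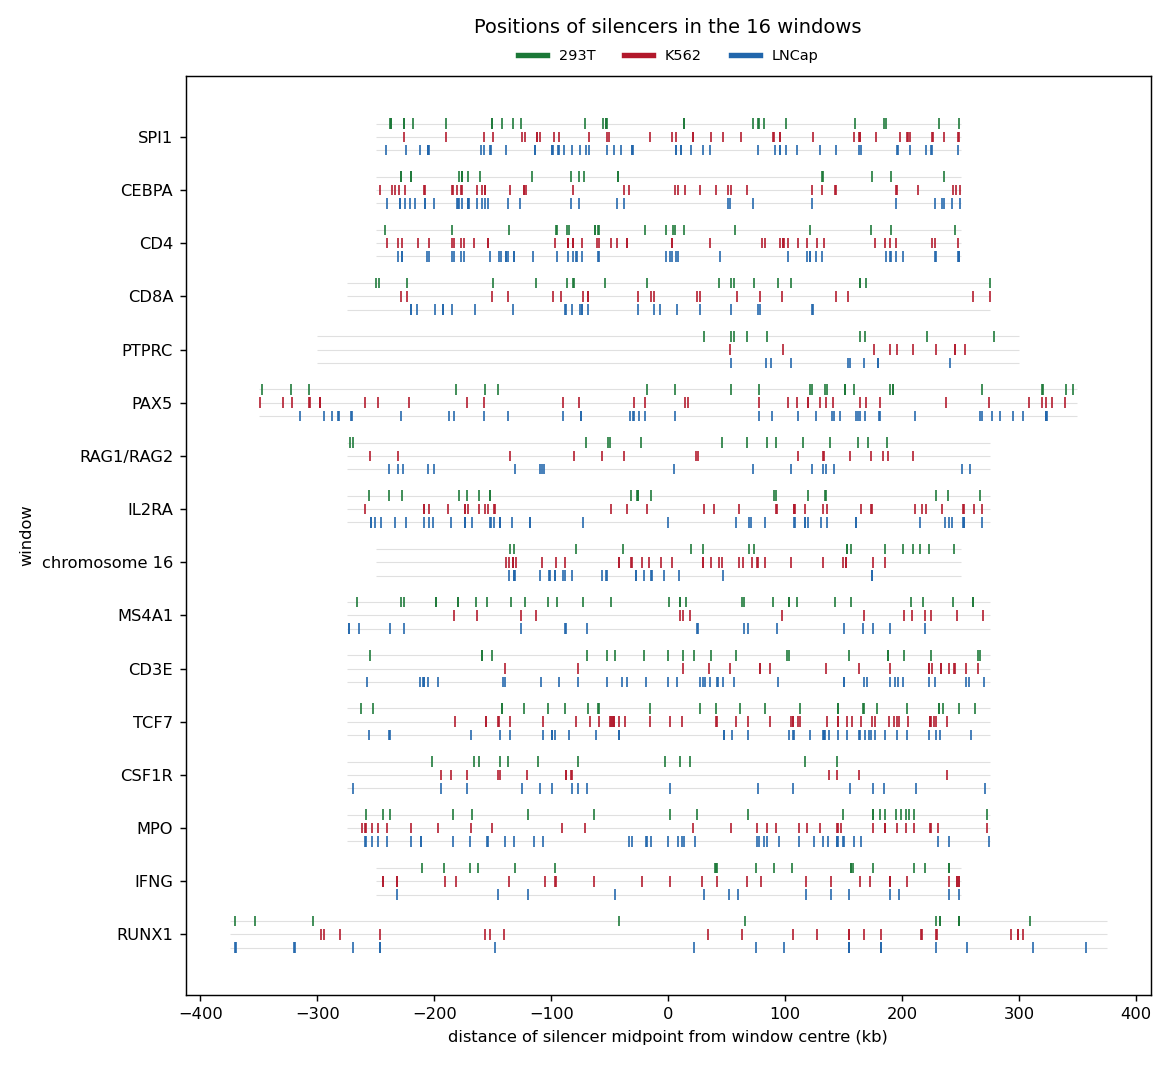
Midpoints of all 1308 silencers as ticks along the distance from the window's centre in kb (horizontal axis), with 1 row per list in each of the 16 windows (vertical axis; grey lines give the window's length). The left side of PTPRC is empty in all 3 lists, and LNCap ticks are missing near 200 kb in the MPO window.

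A window was read as standing apart in a list when the ratio to the other lists passed 2 or fell short of 0.5, and few did. 293T was over 2 times in 1 of 16 windows (MS4A1), against 4.30% of the 5603 bins of 500 kb with at least 20 silencers, and under 0.5 times in 1 (CD4), against 4.48% of bins. K562 was over 2 times in 0 windows (0.660% of bins) and under 0.5 times in 0 (2.55%). LNCap was over 2 times in 0 (0.785%) and under 0.5 times in 0 (3.55%). The number of windows past the rule was therefore small, and neither MS4A1 nor CD4 passed it with merged silencers, when 1 other window of 293T, CEBPA, fell under 0.5. The direction was less even: 293T had a ratio under 1 in 15 of 16 windows, against 47.4% of bins, with a median of 0.668 over the windows and 1.03 over the bins. The medians were 1.06 and 0.981 for K562, and 1.14 and 0.977 for LNCap. Of the 48 intervals of these ratios, 11 lay wholly on 1 side of 1, 6 above and 5 below, with no adjustment for their number. The 3 ratios of a window rest on the same 3 counts, so the 48 are not separate. The share of bins with such an interval was not computed. Each of the 11 took in 1 under at least 1 of 4 alternatives: scores above the list median, scores of at least 2.5, merged silencers or trimmed windows.

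**Figure D3:**
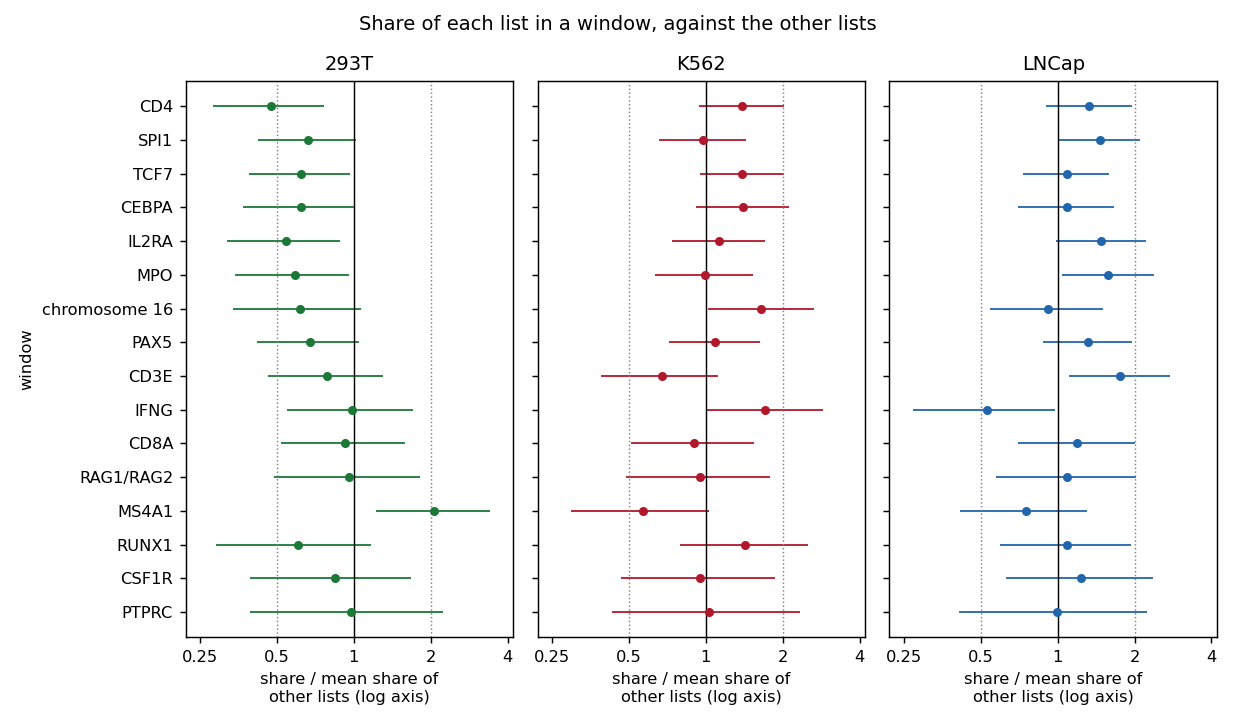
Share of a list in each window divided by the mean share of the other lists (horizontal log axis), for 293T, K562 and LNCap in 3 panels, with 95% intervals of counting error; the solid line marks 1 and dotted lines mark 0.5 and 2. The 293T points lie left of 1 in every window but MS4A1.

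Few silencers of the windows were met in another list, at about the rate of the whole lists. K562 silencers overlapped a LNCap silencer in 81 of 475 cases, 17.1% (13.9 to 20.7) against 15.7% of the whole list. LNCap silencers overlapped K562 in 77 of 507, 15.2% (12.3 to 18.6) against 15.4%. The 293T list met the others far less often. It overlapped K562 in 15 of 326 cases, 4.60% (2.81 to 7.45) against 3.30%, and LNCap in 17, 5.21% (3.28 to 8.19) against 3.58%. In the other direction, 15 K562 silencers overlapped 293T, 3.16% against 3.03%, as did 16 of LNCap, 3.16% against 3.23%. Every one of these intervals took in the share of the whole list.

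Trimming 100 kb from each end of the windows lowered all 6 shares of overlap by differing amounts. For 293T and K562 they were then 1.98% (293T in K562) and 1.37% (K562 in 293T). For 293T and LNCap they were 4.46% and 2.77%, and for K562 and LNCap 13.7% and 11.4%. The last of these, LNCap in K562, had an interval of 8.37 to 15.3, narrowly below the 15.4% of the whole list. The intervals of the other trimmed shares took in the share of the whole list. Near misses were counted as midpoints within 500 bp. By that rule 293T silencers met K562 in 46 cases, 14.1% (10.7 to 18.3) against 10.0% of its list, and LNCap in 46, 14.1% against 10.6%. K562 met 293T in 44, 9.26% against 9.21%, and LNCap in 141, 29.7% against 27.2%. LNCap met 293T in 45, 8.88% against 9.65%, and K562 in 137, 27.0% against 27.0%. The lower bound of the 293T intervals, 10.7% with either list, thus lay above the share of the whole list, narrowly so for LNCap. The other shares by the 500 bp rule lay within counting error of their lists.

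**Figure D4:**
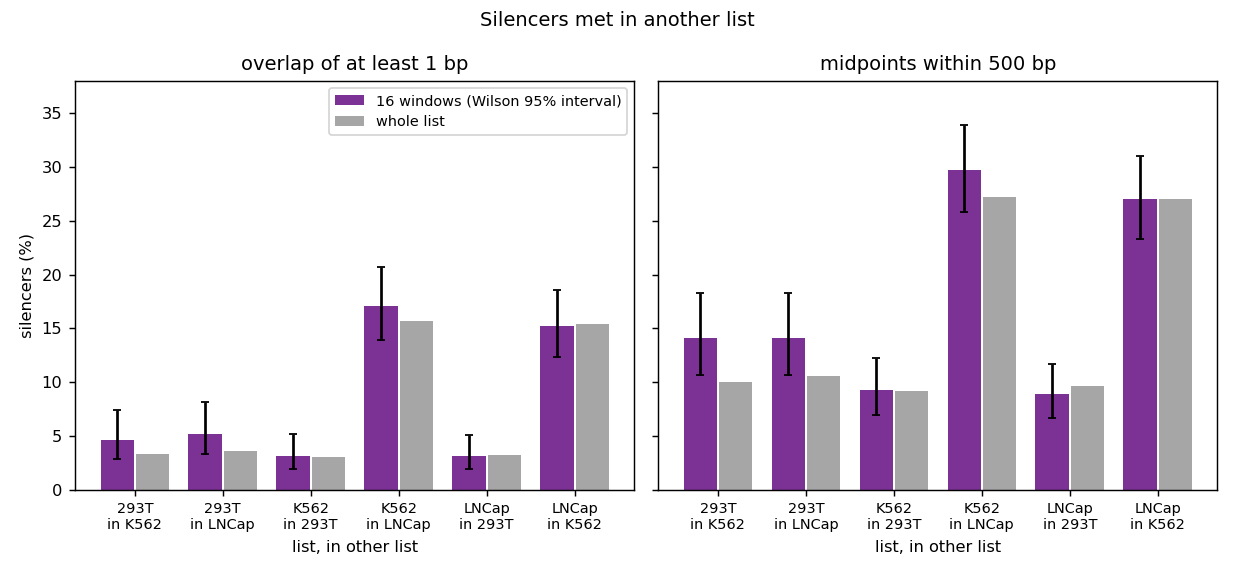
Percent of silencers (vertical axis) that overlap a silencer of another list by at least 1 bp (left panel) or have a midpoint within 500 bp of one (right panel), for the 16 windows (with Wilson 95% intervals) and for the whole list. The K562 and LNCap pair stands highest, and the windows lie close to the whole lists.

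Merging overlapping silencers of all lists gave 1193 positions in the windows. Of these, 297 were held by 293T alone, or 24.9% against 32.0% over the genome. K562 alone held 381, 31.9% against 30.0%, and LNCap alone held 419, 35.1% against 30.9%. Shared positions were mostly those of K562 and LNCap, 68 or 5.70% (4.52 to 7.16), against 5.11% over the genome. They lay in 15 windows, with none in PTPRC, and 7 of them were the same interval in both lists. The largest numbers were 10 each at CD4 and TCF7 and 8 each at SPI1 and MPO. 293T shared 12 positions with K562 alone, 1.01% against 0.763% over the genome, and 10 with LNCap alone, 0.838% against 0.856%.

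All 3 lists held 6 positions, 0.503% of the 1193 (0.231 to 1.09), against 0.372% over the genome. Besides the 1 at CEBPA and the 2 at CD4 given above, they lay at PAX5, MPO and IFNG. At PAX5, chr9:37027551-37027851, the scores were 2.1 in 293T, 2 in K562 and 2.6 in LNCap. At MPO, chr17:58016631-58016765, they were 2.5, 2.9 and 4.6. At IFNG, chr12:68389951-68390521, 293T had 2 silencers (2.8 and 2.1), K562 1 of 3.7 and LNCap 1 of 2.4. These positions were 134 to 654 bp long, and only the PAX5 position remained with the windows trimmed by 100 kb at each end. The lists can overlap there in a chain and need not share a base. At CEBPA the K562 and LNCap silencers lie apart and meet through the 293T one. K562 and 293T silencers lie apart, and meet through the LNCap one, at chr12:6989551-6990205 in CD4, at PAX5 and at IFNG. Bases common to all 3 lists were found only at chr12:6615381-6615631 in CD4 and at MPO.

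The silencers of the windows were scored much like the rest of their lists. Median scores for 293T, K562 and LNCap were 2.30, 2.20 and 2.30, beside 2.30, 2.20 and 2.20 over the lists. Scores of 3 or more made up 11.7% of 293T members (8.61 to 15.6), beside 14.2% of that list. For K562 they made up 9.47% (7.16 to 12.4) beside 9.85%, and for LNCap 9.27% (7.04 to 12.1) beside 11.6%. The high scores were scattered, and only 1 of the 3 top scores lay at a position met in another list: those of 293T (CD8A) and K562 (SPI1) did not, and that of LNCap (MPO) did. Silencers shared by K562 and LNCap were wider, with a median of 100 bp in both lists against 50 bp for the rest. The part of width in this sharing was not tested.

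**Figure D5:**
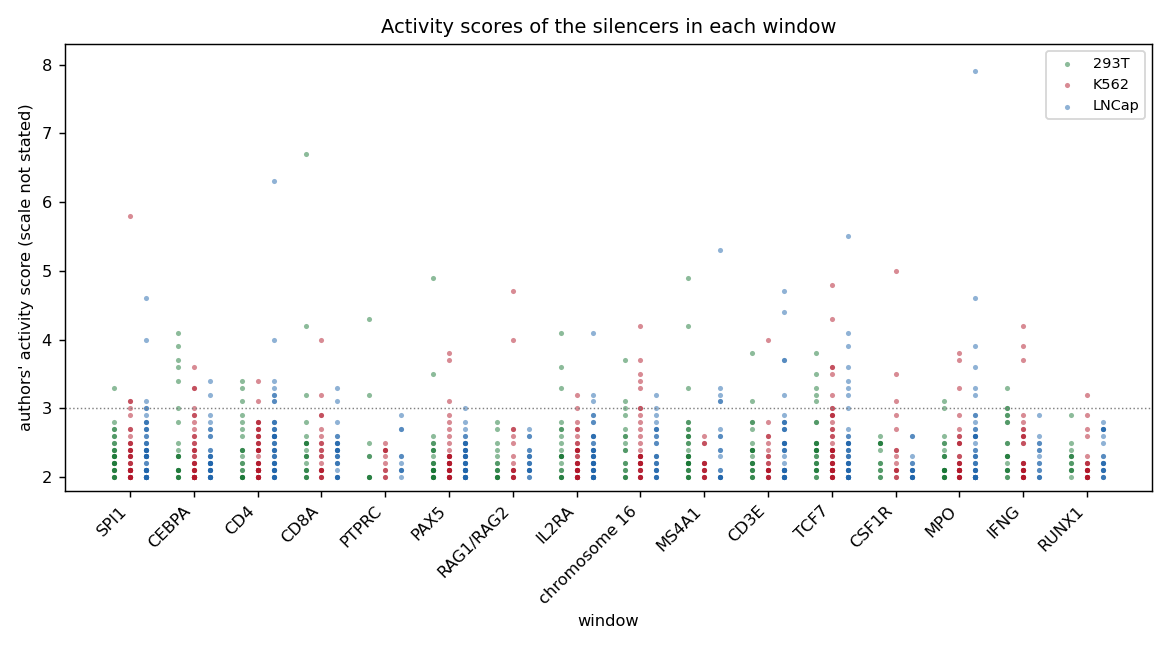
The authors' activity score of every member (vertical axis, scale not stated) in each of the 16 windows (horizontal axis), as points for 293T, K562 and LNCap; the dotted line marks 3. Most points lie under 3, and the highest are 7.9 in LNCap at MPO, 6.7 in 293T at CD8A and 5.8 in K562 at SPI1.

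Wide members were more frequent than in the whole list in LNCap. Silencers over 200 bp made up 10.3% of LNCap members (7.91 to 13.2; 52 silencers), beside 6.76% of the list. In K562 they made up 8.42% (6.25 to 11.3; 40 silencers) beside 6.92%, and in 293T 6.13% (4.01 to 9.29; 20 silencers) beside 4.94%, both within counting error. The members covered 0.588% of the windows' bases in LNCap, 0.507% in K562 and 0.304% in 293T, beside 0.408%, 0.399% and 0.337% of the genome. Arrays held 7.50% of LNCap members in 12 arrays (5.09% of the list), 5.68% of K562 members in 8 (4.52%) and 3.99% of 293T members in 4 (4.47%). K562's largest array, 5 silencers over 700 bp at chr9:36651951-36652651, lay in the PAX5 window. No list was denser in the central 100 kb of the windows than outside it: 30.0 against 37.8 per Mb in 293T, 46.9 against 54.4 in K562 and 45.6 against 59.0 in LNCap, and each pair of intervals overlapped.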

How the data were processed

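The analysis used the authors' 3 silencer lists, deposited with chromosome, start, end and an activity score, per the file headers. The submitters' processing notes name Bowtie2, SAMtools and build hg38. The region caller, thresholds and versions were not given in the sources used here. Coordinates stand as in the lists, whose starts may count from 0 or from 1. Broken lines and silencers over 5000 bp were left out (58, 12 and 25 lines of 293T, K562 and LNCap; 125249, 134159 and 137728 remained). Infinite scores (2, 31 and 13) were all outside the windows. Chromosome lengths were the highest ends in any list.

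Densities carry exact Poisson, shares Wilson, and ratios of shares Clopper-Pearson 95% intervals. Backgrounds were whole lists, the genome length or 500 kb bins. The bins were those with any silencer, or those with at least 20 for ratios to the other lists. Every window was named, with each list's highest score, the widest silencers, positions held by all lists, and the densest and emptiest stretches. Windows, members and lists were chosen with earlier results of these data known; the 50 kb bins lacking a list, the gaps over the genome and the counts beside each centre were added after seeing the data. Other score minimums, merging, trimmed windows, backgrounds, overlap rules and omitted windows were tried as alternatives. Overlap and window counts were tested on simulated silencers, and merging on a made example. The ratios and their intervals were not tested in this way. The tools were scipy 1.17.1, pandas 2.3.3, numpy 2.4.6 and matplotlib 3.10.9 under Python 3.11.15.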

Additional observations from a re-analysis of the deposited data

How the results depend on the processing

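The point values of density relative to the genome, and of share relative to the other lists, stayed on their side of 1 for each list under every alternative run. Intervals did not all stay: with scores above the list median the K562 density was 1.13 (0.979 to 1.29). The K562 share ratio took in 1 with those scores (0.870 to 1.23), with scores of at least 2.5 (0.899 to 1.37), merged (0.992 to 1.27), against the same chromosomes (0.994 to 1.25) and in trimmed windows. Over windows left out in turn, the 293T share ratio ran from 0.673 to 0.748. Among the 256 values of all results so made, no ratio or percent moved beyond its main interval. The count of positions held by all lists, which has no interval, ran from 4 to 6. Counts of windows past the rule of 2 times or 0.5 times rest on 0 or 1 window and moved easily. With scores above the list median, 2 windows of 293T and 1 of K562 were under 0.5 times, 1 of LNCap was over 2 times, and 3 positions were held by all lists. With scores of at least 2.5, 2 windows of 293T, 2 of K562 and 1 of LNCap were under 0.5 times, 1 of K562 and 3 of LNCap were over 2 times, 12.5% of K562 silencers overlapped LNCap and 9.47% the reverse, and 2 positions were held by all lists. The LNCap ratio at CD3E was then 2.98 and the 293T ratio at MPO 0.342. With silencers within 500 bp merged, 0 windows of 293T were over 2 times. With windows trimmed by 100 kb at each end, 2 windows of 293T and 1 of K562 were under 0.5 times, 2 of K562 and 1 of LNCap were over 2 times, and 1 position was held by all lists. Overlap was then 1.98% for 293T in K562, 1.37% for K562 in 293T, 13.7% for K562 in LNCap and 11.4% for LNCap in K562, and the LNCap ratio at MPO was 2.73. With an overlap of at least 25 bp, 2.45% of 293T silencers met K562 and 1.68% of K562 silencers met 293T. Midpoints within 500 bp gave 14.1% for 293T in both other lists, 9.26% for K562 in 293T, 29.7% for K562 in LNCap, 8.88% for LNCap in 293T and 27.0% for LNCap in K562, and 12 positions in all lists. A score minimum or trimming leaves fewer silencers, and the cause of these changes was not tested. Overlap over the whole lists was not computed with the score minimums or the 25 bp rule. The share of bins past 2 or 0.5 times was not computed under any alternative. The backgrounds given earlier thus do not apply to those values. No paired analysis was possible because each line has 1 list and no test was made. Unknown read depth limits every count: where a window has few silencers, too few reads cannot be told apart from a lack of silencers.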
